A study of Homo sapiens with 8 samples.

Results

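RNA of 10 subunits of the SWI/SNF chromatin remodelling complexes was followed in NCI-H1581 and NCI-H1703, 2 lines of lung cancer cells (non-small cell), together with the variants of both that became resistant to the FGFR inhibitor CPL304110. The 10 genes (SMARCA4, SMARCA2, SMARCB1, SMARCC1, SMARCC2, SMARCD1, SMARCD3, SMARCE1, ARID1A and ARID1B) were taken by symbol from a table of 37441 genes, in which each had 1 row. All 10 were among the 18203 genes with at least 10 counts over the 8 libraries, which were the genes tested. The 4 groups were NCI-H1581, NCI-H1581R, NCI-H1703 and NCI-H1703R, with 2 replicates each. The variant NCI-H1581R was selected in CPL304110 raised from 50 nM to 2.5 µM, and NCI-H1703R from 50 nM to 5 µM. The sensitive lines were not selected with the inhibitor. The NCI-H1581 lines were kept in DMEM/F12 and the NCI-H1703 lines in RPMI 1640, so medium and cell line cannot be told apart. The labels describe 1 resistant variant per line. Cells were harvested 24 h after a change of medium, and the methods do not state whether that medium held the inhibitor.

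SWI/SNF complexes, also called BAF complexes, use the energy of ATP to slide or evict nucleosomes and so open regulatory DNA. Each complex holds 1 of 2 alternative ATPases, SMARCA4 (BRG1) or SMARCA2 (BRM). In the canonical form it is built onto a scaffold of SMARCC1 and SMARCC2 with a SMARCD subunit, SMARCE1 and SMARCB1. ARID1A and ARID1B are alternative large subunits of the canonical form of the complex. Several of these genes are recurrently inactivated in cancers, lung cancer among them.

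The libraries held 33800389 to 40031710 counts each. Replicates differed by more than counting noise in each of the 4 groups, and chi-square over its degrees of freedom ran from 23.3 in NCI-H1703 to 96.8 in NCI-H1581R. Nothing states that replicates came from separate stocks, so p-values measure the spread between these harvests. The 4 mesenchymal markers (VIM, CDH2, ZEB1 and FN1) summed to between 2666 and 6717 CPM (counts per 1000000) in a library, mostly VIM. The 5 epithelial markers (EPCAM, CDH1, KRT8, KRT18 and KRT19) summed to between 6.76 and 75.6 CPM. The 4 lung adenocarcinoma markers summed to between 1.96 and 61.5 CPM, with NKX2-1 at 457 to 2341 counts in the NCI-H1581 lines and 6 to 24 in the NCI-H1703 lines, SFTPB at 40 to 92 counts and SFTPC at 0 in all 8 libraries. The 4 squamous markers summed to between 0.243 and 32.6 CPM and the 4 neuroendocrine markers to between 8.61 and 103.7 CPM. The 3 blood markers summed to between 15.1 and 96.8 CPM, nearly all of it CD68 (578 to 3261 counts), while PTPRC had 15 and 15 counts in NCI-H1581R and at most 2 elsewhere and CD3E had 0. The 3 endothelial markers stayed at or below 0.449 CPM. KRT5, a basal keratin, had 0 or 1 counts in the 4 libraries of replicate 1 and 35 to 47 counts in those of replicate 2, and its part in the results below was not tested.

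The ATPase subunits had little RNA in either line, although scaffold and SMARCD subunits were abundant. SMARCA4 (ENSG00000127616, chr19:10960932-11079426, plus strand) had 189 and 224 counts in NCI-H1581, 183 and 311 in NCI-H1581R, 285 and 151 in NCI-H1703 and 192 and 66 in NCI-H1703R. SMARCA2 (ENSG00000080503, chr9:1980290-2193624, plus strand) had 3 and 3 counts in NCI-H1581, 4 and 2 in NCI-H1581R, 14 and 15 in NCI-H1703 and 15 and 12 in NCI-H1703R. In each library SMARCA2 thus had fewer counts than any other member. By contrast, the scaffold gene SMARCC1 (ENSG00000173473, chr3:47585269-47782106, minus strand) had between 6522 and 10763 counts in the same libraries.

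Levels of different genes were compared per length, as counts divided by the merged exon length of the gene and scaled to 1000000 per library. On this scale SMARCA4 lay between 0.430 and 2.17 and SMARCA2 between 0.0114 and 0.0931. The order of the members by their median level per length was SMARCD1 (130), SMARCC1 (93.4), SMARCC2 (59.9), ARID1A (50.5), SMARCD3 (38.9), SMARCE1 (16.5), ARID1B (9.69), SMARCA4 (1.21), SMARCB1 (0.442) and SMARCA2 (0.0417). Neighbours in this order from SMARCD1 to SMARCD3 overlapped in their range over the 8 libraries, as did SMARCE1 with ARID1B and SMARCA4 with SMARCB1. Against all protein-coding genes SMARCA4 stood between the 38.2 and 43.9 percentile and SMARCA2 between the 21.4 and 30 percentile. The summed level per length of the scaffolds SMARCC1 and SMARCC2 was 105.3 times that of both ATPases in the median library, with a range from 72.4 in NCI-H1581R replicate 2 to 339.8 in NCI-H1703R replicate 2. With the longest transcript in place of the merged exons the median was 54.4, and the order of the members changed in 1 place, with ARID1B (29.3) above SMARCE1 (25.8).

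**Figure D1:**
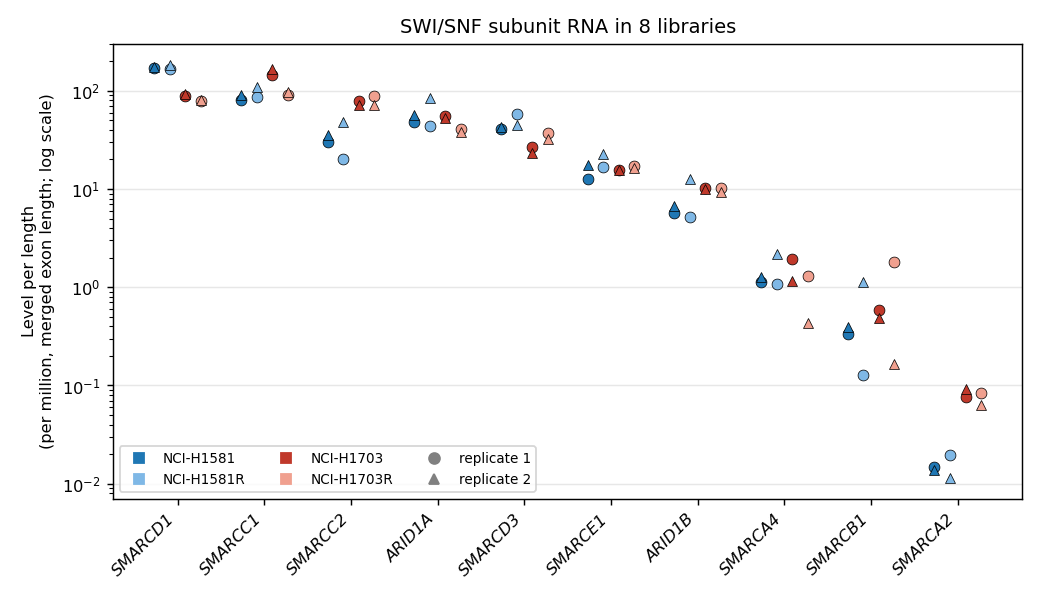
Level per length (log axis) of the 10 members, ordered by median. Each point is 1 library, with circles for replicate 1 and triangles for replicate 2 and a colour for each of the 4 groups. SMARCA4, SMARCB1 and SMARCA2 sit at or below 2.17 in every library, and the other 7 members sit at or above 5.21.

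The sequences at the starts of both ATPase genes are shown because their RNA was scarce, beside that of SMARCD1, the member with the highest level per length. They are the 300 bases from 250 before to 50 after the RefSeq start on GRCh38.p14, written 5′ to 3′ on the plus strand, at chr19:10960780-10961079 for SMARCA4, chr9:2015097-2015396 for SMARCA2 and chr12:50085092-50085391 for SMARCD1. The SMARCA2 window lies inside the gene as placed above, since the GENCODE gene begins upstream of the RefSeq start. Capitals mark GC boxes, the letters GGGCGG or, for the other strand, CCGCCC, which are the core of sites bound by SP1.
SMARCA4: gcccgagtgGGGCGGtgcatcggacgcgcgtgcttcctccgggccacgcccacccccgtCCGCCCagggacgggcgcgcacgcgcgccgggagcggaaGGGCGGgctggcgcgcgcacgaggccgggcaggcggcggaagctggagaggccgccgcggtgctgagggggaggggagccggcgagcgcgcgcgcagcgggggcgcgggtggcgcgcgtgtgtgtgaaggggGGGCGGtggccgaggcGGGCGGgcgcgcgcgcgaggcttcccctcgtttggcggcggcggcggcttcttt
SMARCA2: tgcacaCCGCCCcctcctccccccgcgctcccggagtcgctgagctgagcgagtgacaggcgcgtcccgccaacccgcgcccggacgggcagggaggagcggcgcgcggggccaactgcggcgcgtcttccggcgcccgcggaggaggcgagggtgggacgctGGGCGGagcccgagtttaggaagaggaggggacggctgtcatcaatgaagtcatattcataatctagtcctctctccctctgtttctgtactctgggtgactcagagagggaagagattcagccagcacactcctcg
SMARCD1: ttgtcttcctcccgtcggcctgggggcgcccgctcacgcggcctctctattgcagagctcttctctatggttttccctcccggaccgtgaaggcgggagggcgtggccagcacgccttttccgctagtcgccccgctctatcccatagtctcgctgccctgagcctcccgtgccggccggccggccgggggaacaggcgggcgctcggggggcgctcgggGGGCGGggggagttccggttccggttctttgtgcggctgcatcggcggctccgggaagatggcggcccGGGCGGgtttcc
The RefSeq table held such windows for 8 of the 10 members. The SMARCA4 window held 5 GC boxes and 55 CG dinucleotides, the SMARCA2 window 2 and 30, and the SMARCD1 window 2 and 35. Of all 35116 windows, 45% held at least 1 GC box, 26.7% at least 2 and 5.14% at least 5, and the median window held 14 CG. So all 3 windows were richer in CG than the median promoter. A count of letters says nothing of whether a promoter is used, and DNA methylation was not analysed here.

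SMARCB1, the SNF5 core subunit (ENSG00000099956, chr22:23786931-23838009, plus strand), could not be read as a level. Its row held 59 and 74 counts in NCI-H1581, 23 and 173 in NCI-H1581R, 93 and 68 in NCI-H1703 and 284 and 27 in NCI-H1703R. The replicates thus differed 7.19-fold in NCI-H1581R and 10.5-fold in NCI-H1703R, the widest gaps among the members. Of 44 genes searched against the alternate contigs of GRCh38, SMARCB1 was the only one with a copy of its whole longest transcript, 5191 of 5191 bases, on the alternate contig KI270879. Reads from such a gene can be divided between identical copies, and 2946 rows of the table have identifiers outside the annotation used here, with 1.94% to 2.49% of the counts of a library. No SMARCB1 value below is therefore taken as its total. SMARCA4 and SMARCA2 had no matching bases on those contigs. Wide gaps between replicates were not limited to the gene with a copy. SMARCA4 differed 2.91-fold in NCI-H1703R. INO80, an ATPase gene of another remodeller, also had no matching bases, and had 0 and 160 counts in NCI-H1581R. The part of the copy in the SMARCB1 spread was not tested.

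In sensitive cells the lines differed in the make-up of the scaffold and of the SMARCD subunits. NCI-H1703 had more SMARCC2, SMARCC1, ARID1B and SMARCA2 RNA than NCI-H1581, and less SMARCD1 and SMARCD3. Thus 6 of the 10 members were called (edgeR quasi-likelihood test, adjusted p under 0.1), 4 higher and 2 lower, where 62.9% of all tested genes were called, 32.5% higher and 30.4% lower. A share of 6 in 10 is near that background.

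SMARCC2, the second scaffold gene (ENSG00000139613, chr12:56162359-56189567, minus strand), was at 87.9 and 92.4 CPM in NCI-H1581 and at 188 and 167 CPM in NCI-H1703. Both NCI-H1703 libraries lay above both NCI-H1581 libraries, and the log2 fold change was 0.98 ± 0.10 (SE, edgeR adjusted p = 0.000131). SMARCC1 was at 195 and 193 CPM in NCI-H1581 and at 288 and 322 CPM in NCI-H1703, again with no overlap (log2 fold change 0.65 ± 0.10, edgeR adjusted p = 0.00112). The SMARCC1 difference fell to 0.10 (adjusted p = 0.44) with an offset for GC content and length, and its adjusted p ranged from 1.13e-08 to 0.472 over the alternatives. The SMARCC2 difference was called under all 11 alternatives that kept every library.

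SMARCD1 and SMARCD3 are alternative members of the BAF60 family, which link the complex to transcription factors, and SMARCD3 is best known from heart and muscle. SMARCD1 (ENSG00000066117, chr12:50085200-50100707, plus strand) was at 261 and 240 CPM in NCI-H1581 and at 113 and 114 CPM in NCI-H1703, a 2.20-fold lower level (log2 fold change -1.14 ± 0.09, edgeR adjusted p = 3.68e-05). SMARCD3 (ENSG00000082014, chr7:151238764-151277896, minus strand) was at 63.3 and 58.9 CPM in NCI-H1581 and at 33.9 and 28.8 CPM in NCI-H1703 (log2 fold change -0.96 ± 0.12, edgeR adjusted p = 0.000316). Neither gene's groups overlapped. Strand was not stated, and 26.9% of the exon length of SMARCD3 lies opposite CHPF2, so part of its reads could belong to that gene. CHPF2 had 4623 and 4494 counts in NCI-H1581, 3155 and 2634 in NCI-H1581R, 3001 and 2582 in NCI-H1703 and 3478 and 4126 in NCI-H1703R. Its part in the SMARCD3 values was not tested. Likewise 7.83% of SMARCC2 lies opposite MYL6, with 15630 to 26274 counts.

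ARID1B (ENSG00000049618, chr6:156776020-157210779, plus strand) was at 83.4 and 86.7 CPM in NCI-H1581 and at 121 and 117 CPM in NCI-H1703 (log2 fold change 0.48 ± 0.10, edgeR adjusted p = 0.00375), a call lost in a single fit of all 8 libraries (adjusted p = 0.165, with a range from 2.33e-05 to 0.165 over the alternatives). Its paralog ARID1A (ENSG00000117713, chr1:26693236-26782104, plus strand) was at 239 and 256 CPM against 227 and 215 CPM, with a log2 fold change of -0.17 ± 0.09 that was not called (edgeR adjusted p = 0.171). These groups did not overlap, and ARID1A was called lower in 3 of the 11 alternatives that kept every library, DESeq2 among them (adjusted p = 0.0646, with a range from 0.0646 to 0.513). SMARCE1 (ENSG00000073584, chr17:40624962-40648654, minus strand), an HMG-box subunit, was at 73.9 and 91.2 CPM against 74.6 and 72.1 CPM (log2 fold change -0.17 ± 0.13, edgeR adjusted p = 0.292). With the GC content and length offset SMARCE1 was called lower, at -0.58 (adjusted p = 0.0019, with a range from 0.0019 to 0.412 over the alternatives).

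The ATPases differed unequally between the lines. SMARCA2 had 29 counts in NCI-H1703 and 6 in NCI-H1581, a ratio of 5.16 per total count with a 95% interval from 2.11 to 15.2 that covers counting error only. Its 2 groups did not overlap (log2 fold change 2.29 ± 0.83, edgeR adjusted p = 0.0437), but the call was lost without NCI-H1581 replicate 2 (adjusted p = 0.131), without NCI-H1703 replicate 1 (0.121) and without NCI-H1703 replicate 2 (0.159), with the GC content and length offset (0.12) and with DESeq2 (0.182), and it held in 6 of the 10 alternatives that kept every library. SMARCA4 was at 5.61 and 5.59 CPM in NCI-H1581 and at 7.70 and 4.52 CPM in NCI-H1703, so the NCI-H1703 libraries lay on either side of the others (log2 fold change 0.14 ± 0.28, edgeR adjusted p = 0.708).

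**Figure D2:**
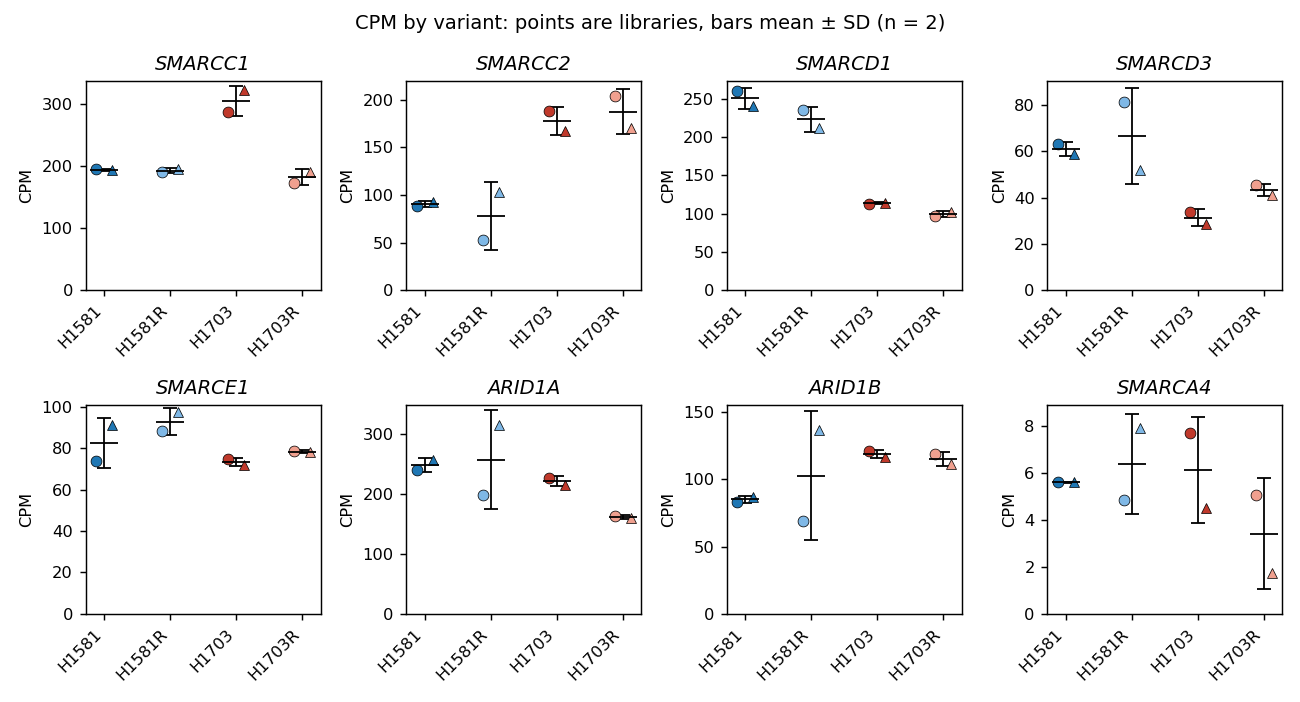
CPM of 8 members in the 4 groups (H1581 and H1703 stand for NCI-H1581 and NCI-H1703, and R for the resistant variant). Circles are replicate 1, triangles replicate 2, and bars show mean ± SD (n = 2). SMARCC1 is at 288 and 322 CPM in NCI-H1703 and between 172 and 196 CPM in the other 6 libraries, and the 2 NCI-H1581R replicates lie apart for SMARCC2, ARID1A and ARID1B.

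Between NCI-H1703R and NCI-H1703 the scaffold gene SMARCC1 and ARID1A fell and SMARCD3 rose. These 3 of 10 members were called, 1 higher and 2 lower, against 14.7% of all genes (7.06% higher and 7.67% lower). The median log2 fold change of the 10 members was -0.09, and that of all tested genes was 0. The 5 epithelial markers summed to 75.6 and 73.3 CPM in NCI-H1703 and to 8.41 and 6.76 CPM in NCI-H1703R, mostly through KRT18 (2380 and 2188 counts against 109 and 94). CDH2, the N-cadherin gene, had 1857 and 1626 counts in NCI-H1703 and 41 and 44 in NCI-H1703R. The part of these marker changes in the members' results was not tested.

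SMARCC1 went from 288 and 322 CPM in NCI-H1703 (305 ± 24.2, SD, n = 2) to 172 and 191 CPM in NCI-H1703R (182 ± 13.0, SD, n = 2). Both resistant libraries lay below both sensitive ones, a 1.64-fold fall (log2 fold change -0.72 ± 0.11, edgeR adjusted p = 0.0174). ARID1A went from 227 and 215 CPM to 163 and 159 CPM, a 1.34-fold fall with no overlap (log2 fold change -0.42 ± 0.09, edgeR adjusted p = 0.0393). SMARCD3 went from 33.9 and 28.8 CPM to 45.3 and 41.4 CPM, a 1.41-fold rise with no overlap (log2 fold change 0.50 ± 0.12, edgeR adjusted p = 0.0603). CHPF2, which lies opposite part of SMARCD3, had 3001 and 2582 counts in NCI-H1703 and 3478 and 4126 in NCI-H1703R. Its part in the SMARCD3 rise was not tested. At an adjusted p under 0.1, SMARCC1 was called in all 11 alternatives that kept every library, with adjusted p from 1.48e-08 to 0.05. SMARCD3 was called in 10 of them and ARID1A in 9. Among these 11 is the main fit with the threshold at 0.05, which SMARCD3 (edgeR adjusted p = 0.0603) did not pass. ARID1A was not called with the GC content and length offset (-0.26, adjusted p = 0.263), and neither ARID1A (adjusted p = 0.271) nor SMARCD3 (0.287) was called in a single fit of all 8 libraries. Without 1 library of NCI-H1703 none of the 3 was called: SMARCC1 had adjusted p = 0.13 without replicate 1 and 0.187 without replicate 2. Without NCI-H1703R replicate 1 SMARCD3 (adjusted p = 0.184) was lost, and without replicate 2 both SMARCD3 (0.114) and ARID1A (0.102). The directions of all 3 held in each of these fits. With groups that do not overlap, leaving out 1 library could hardly reverse a direction, so this is no separate support. Genes around SMARCC1 were lower too in NCI-H1703R: of 26 genes within 1 Mb that averaged 5 CPM or more, 16 were called lower.

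Same-numbered replicates of NCI-H1703 and NCI-H1703R deviated together (Pearson r = 0.458 across 11174 genes, which are not independent replicates), and a block for the replicate number gave 5 called members, 1 higher and 4 lower, where 34.9% of all genes were called (18.2% higher and 16.7% lower). The block kept SMARCC1, ARID1A and SMARCD3 and added SMARCA4 (log2 fold change -0.82 ± 0.24, adjusted p = 0.0294) and SMARCD1 (-0.16 ± 0.06, adjusted p = 0.0845). SMARCA4 was at 7.70 CPM in NCI-H1703 replicate 1 and 5.08 CPM in NCI-H1703R replicate 1, and at 4.52 and 1.74 CPM in replicate 2. It was therefore lower in the resistant variant within each replicate, while the pooled groups overlapped and the unblocked test gave an adjusted p of 0.388 (0.0294 to 0.455 over the alternatives). Without the block, leaving out 1 library moved the SMARCA4 value between -1.78 (without NCI-H1703R replicate 1) and -0.25 (without NCI-H1703R replicate 2), and none of the 4 fits called it (adjusted p = 0.129 to 0.827). SMARCD1 was at 113 and 114 CPM in NCI-H1703 and at 96.2 and 102 CPM in NCI-H1703R. SMARCC2 (log2 fold change 0.11 ± 0.12), SMARCE1 (0.13 ± 0.08) and ARID1B (-0.01 ± 0.09) were not called with or without the block (SMARCC2 was called higher with the block and the GC content and length offset together, at 0.22, adjusted p = 0.0256), and neither was SMARCA2, with 29 counts in NCI-H1703 and 27 in NCI-H1703R (ratio 0.880, 95% interval 0.501 to 1.54).

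Between NCI-H1581R and NCI-H1581 no member was called. In edgeR 0 of 10 members passed (smallest adjusted p = 0.625), against 15.1% of all genes (7.63% higher and 7.44% lower), and 0 had an unadjusted p under 0.05, as with DESeq2. The replicate block also gave 0 calls, with 18.1% of all genes called. Log2 fold changes ran from -0.20 for SMARCC2 (SE 0.31) to 0.28 for ARID1B (SE 0.32), apart from the uncertain SMARCB1 row at 0.50 (SE 0.78). The fibronectin gene FN1 had 21 and 57 counts in NCI-H1581 and 28023 and 36165 in NCI-H1581R, TP63 had 211 and 232 against 1045 and 1229, and NKX2-1 had 457 and 601 against 1509 and 2341. Other markers of those lists did not all rise. VIM had 226151 and 244224 counts against 178310 and 154747, and CDH2 119 and 87 against 38 and 45. ZEB1 rose with FN1, from 56 and 92 counts to 711 and 1246. SFTPB had 58 and 92 counts against 40 and 53. KRT5 had 1 and 47 against 0 and 41, and DSG3 11 and 10 against 8 and 11. The part of these markers in the members' values was not tested. SMARCC1, which fell in NCI-H1703R, was at 195 and 193 CPM in NCI-H1581 and at 190 and 196 CPM in NCI-H1581R (log2 fold change 0.00 ± 0.16).

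The 2 NCI-H1581R libraries lay far apart for several members. ARID1B was at 68.7 CPM in replicate 1 and 137 CPM in replicate 2, SMARCC2 at 52.9 and 103 CPM, and ARID1A at 199 and 315 CPM. SMARCD3 went the other way, at 81.4 and 52.1 CPM. Over 10796 annotated genes the median log2 ratio of replicate 2 to replicate 1 was 0.20 in the fifth with the longest transcripts and -0.34 in the fifth with the shortest, so length moved with the replicate difference in this variant, and its part in the members' spread was not tested. Without NCI-H1581R replicate 1 the log2 fold change was 0.70 for ARID1B, 0.36 for ARID1A, 1.30 for SMARCB1, 0.21 for SMARCC2 and -0.21 for SMARCD3. Without replicate 2 the values of these genes were -0.32, -0.33, -1.57, -0.78 and 0.41, each of the opposite sign.

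The change with resistance differed between the lines for SMARCC1. The interaction over all 8 libraries was -0.74 ± 0.17 on the log2 scale (edgeR adjusted p = 0.0262), 1 of 10 members called, against 15.4% of all genes (6.93% higher and 8.47% lower). It was not called with the GC content and length offset (-0.45, adjusted p = 0.234, with a range from 0.00139 to 0.291 over the alternatives), without NCI-H1703 replicate 2 (-0.63, 0.158) or without NCI-H1703R replicate 1 (-0.67, 0.123). ARID1A (-0.51 ± 0.28, adjusted p = 0.337), SMARCD3 (0.34 ± 0.29, 0.579) and SMARCA4 (-1.04 ± 0.65, 0.4) were not shown to differ between the lines in their change.

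**Figure D3:**
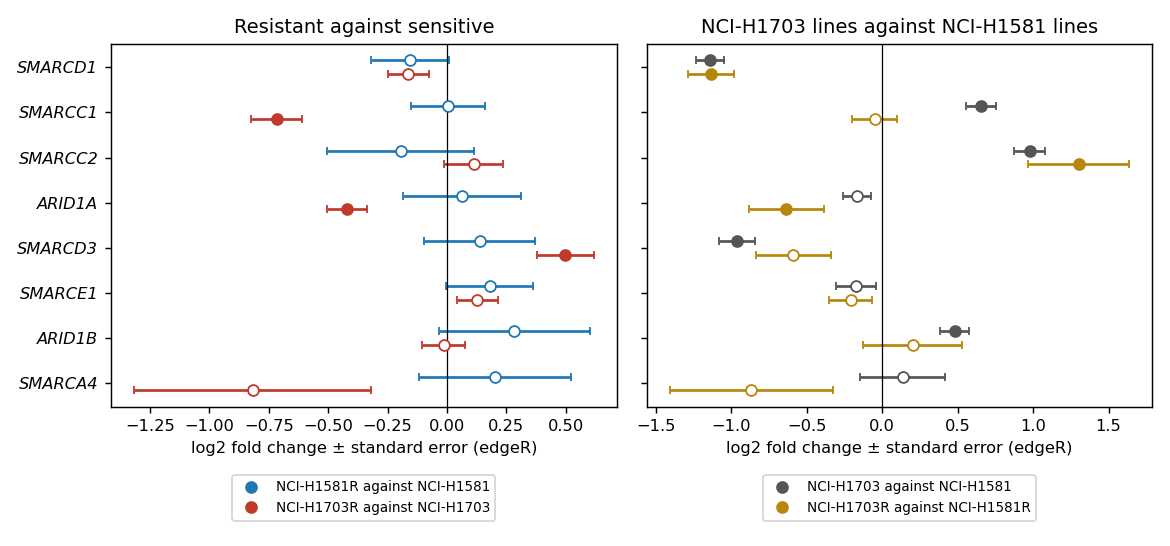
Log2 fold change ± standard error (edgeR) of 8 members, with filled points for adjusted p under 0.1. Left, resistant against sensitive variants in each line; right, NCI-H1703 lines against NCI-H1581 lines. Left, the filled points are SMARCC1 at -0.72, ARID1A at -0.42 and SMARCD3 at 0.50, all in NCI-H1703R, and every NCI-H1581R point is open. SMARCA2 and SMARCB1 are left out because of their few counts and duplicated sequence.

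Between the resistant variants, 4 members were called, 2 higher and 2 lower in NCI-H1703R than in NCI-H1581R, where 52.5% of all genes were called (25.9% higher and 26.7% lower). SMARCC2 was higher (log2 fold change 1.30 ± 0.34, adjusted p = 0.0286) and SMARCD1 lower (-1.13 ± 0.15, adjusted p = 0.00312). SMARCA2 was higher (27 against 6 counts, log2 fold change 2.18 ± 0.72, adjusted p = 0.0547) and ARID1A lower (-0.63 ± 0.25, adjusted p = 0.0927). SMARCC1, which stood 1.57-fold higher in the sensitive NCI-H1703 cells, was at 172 and 191 CPM against 190 and 196 CPM here (log2 fold change -0.05 ± 0.15, adjusted p = 0.812). SMARCD3 (-0.59 ± 0.25, adjusted p = 0.111) and SMARCA4 (-0.87 ± 0.54, 0.251) were not called. Of the 12 alternatives that kept every library, SMARCD3 was called lower in 6 (adjusted p from 0.0335 to 0.516). The lowest came from the single fit of all 8 libraries. SMARCA4 was called in 1 (0.0353, with a range up to 0.291), a block that pairs replicate 1 of each variant with replicate 2 of the other. This block, also among the 6 for SMARCD3, was chosen after seeing that same-numbered libraries deviated oppositely (r = -0.479). Its calls therefore do not stand as separate evidence. SMARCC2 lost its call without NCI-H1703R replicate 1 (adjusted p = 0.103), ARID1A without any library other than NCI-H1581R replicate 1 (0.134 to 0.29), and SMARCA2 without any of the 4 libraries (0.107 to 0.203). The replicate block gave 2 calls, SMARCC2 and SMARCD1, with 42.0% of all genes called.

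Paralogs were compared by their share of the family's summed level per length. SMARCC1 made up 72.7% and 71.5% of SMARCC1 and SMARCC2 in NCI-H1581, 81.2% and 69.5% in NCI-H1581R, 64.8% and 69.9% in NCI-H1703 and 50.4% and 57.4% in NCI-H1703R. The NCI-H1703R libraries held the lowest shares of the 8. With the longest transcripts in place of merged exons the NCI-H1703R shares were 40.3% and 47.2%, again the lowest of the 8. ARID1A made up 86.9% to 89.5% of ARID1A and ARID1B in the 4 libraries of NCI-H1581 and NCI-H1581R. Its share was 84.4% and 84.1% for the NCI-H1703 replicates, and it was lower again, at 79.8% and 80.5%, for the NCI-H1703R replicates. SMARCD1 made up 55.6% to 59.6% of the SMARCD family in the NCI-H1581 and NCI-H1581R libraries. The NCI-H1703 libraries had shares of 51.1% and 51.6%, above the 42.1% and 44.9% of NCI-H1703R. SMARCD2 held 33.6% and 35.5% in NCI-H1703 and 38.2% and 37.0% in NCI-H1703R, and SMARCD3 15.3% and 12.9% against 19.8% and 18.1%. Shares within a family are relative and do not tell which member moved.

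**Figure D4:**
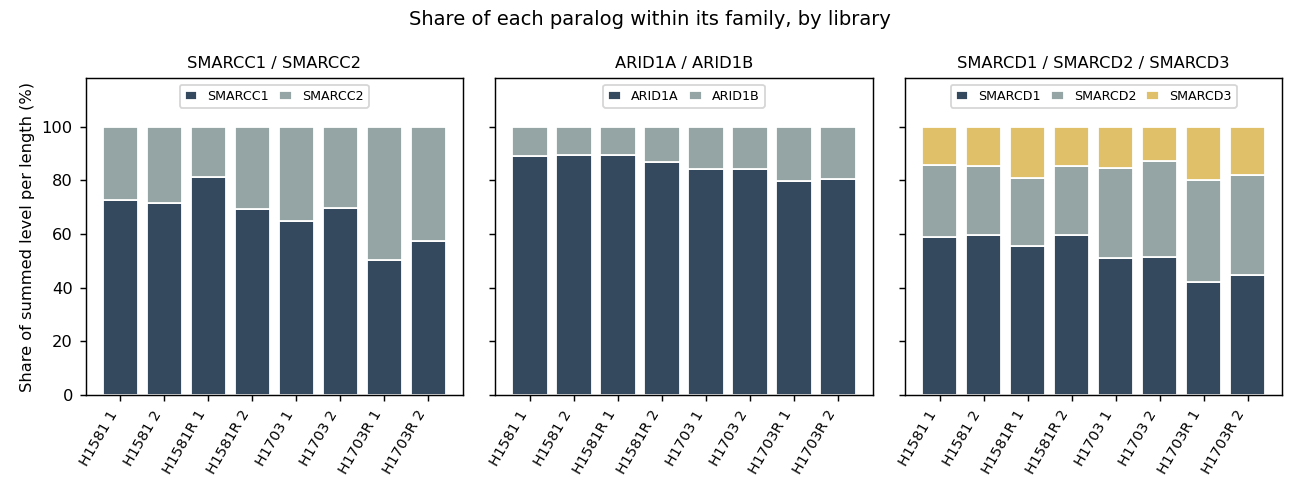
Share (%) of each paralog in the summed level per length of its family, by library (1 and 2 are replicates). The SMARCC1 share is 50.4% and 57.4% in NCI-H1703R and at least 64.8% in the other libraries, and the SMARCD1 share is 42.1% and 44.9% in NCI-H1703R and at least 51.1% elsewhere.

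Of 21 other SWI/SNF subunits, 16 were called between the sensitive lines, 8 higher and 8 lower in NCI-H1703, where 62.9% of all genes were called (32.5% higher and 30.4% lower). Their median log2 fold change was -0.19, and that of all genes was 0.04. ACTL6B, the neuronal actin-related subunit, had 17 and 17 counts in NCI-H1581 and 1 and 0 in NCI-H1703, a ratio of 31.8 with a 95% counting interval from 5.34 to 1294, and its call was lost without NCI-H1703 replicate 2 (edgeR adjusted p = 0.113). DPF1, a neuronal PHD-finger subunit, had 1190 and 1429 counts against 170 and 147 (log2 fold change -2.98 ± 0.15, edgeR adjusted p = 3.35e-06). BCL11B and BCL11A, zinc finger proteins that associate with the complex, had 68 and 168 counts against 7 and 6, and 13 and 20 counts against 3 and 2. The BCL11A call held in 2 of the 4 fits that left out 1 library, and the BCL11B call in 4. SS18L1, the neuronal paralog of SS18, was lower (-1.01 ± 0.17, edgeR adjusted p = 0.00157) and SS18 higher (1.58 ± 0.14, edgeR adjusted p = 5.51e-05). This last pair and BCL7A were chosen after their values were seen. In level per length SS18L1 was at 16.8 and 21.6 against 12.5 and 9.66, and SS18 at 18.4 and 25.8 against 73.6 and 79.8. ACTL6A, the broadly expressed counterpart of ACTL6B, was at 102 to 154 per length in all libraries, so it exceeded ACTL6B in both lines. Between the resistant variants 10 of the 21 were called, 5 higher and 5 lower, where 52.5% of all genes were called, and 6 with the replicate block, where 42.0% were. The largest changes were those of ACTL6B (0 counts in both NCI-H1703R libraries and 25 and 17 in NCI-H1581R), DPF1 (-3.52 ± 0.21, edgeR adjusted p = 0.000195), BCL7A (-2.15 ± 0.18, edgeR adjusted p = 0.000591) and ACTB (1.54 ± 0.27, edgeR adjusted p = 0.00751).

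In NCI-H1581R 3 of the 21 other subunits fell and 0 rose, a share near the 15.1% of all genes called (7.63% higher and 7.44% lower). BCL11B went from 68 and 168 counts to 0 and 2, a ratio of 117 with a 95% counting interval from 32.1 to 973 (edgeR adjusted p = 0.00562). BCL11A went from 13 and 20 counts to 0 and 0, at least 5.46-fold lower against a floor of 3 counts per library (edgeR adjusted p = 0.0918). ACTB, the beta-actin gene whose product is also a subunit, went from 990 and 806 CPM to 600 and 474 CPM (log2 fold change -0.73 ± 0.21, edgeR adjusted p = 0.0858). Leaving out 1 library changed the BCL11A call in 3 of 4 fits and the ACTB call in 2 of 4 fits, and the BCL11B call in none. In NCI-H1703R 1 of 21 was called, where 14.7% of all genes were. It was PHF10, a subunit of the PBAF form, at -0.45 ± 0.12 (edgeR adjusted p = 0.077), and this call was lost whichever of the 4 libraries was left out. The replicate block gave 8 calls of 21 there, 1 higher and 7 lower, against 34.9% of all genes. In the interaction 1 of 21 was called, BCL11A, against 15.4% of all genes.

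**Figure D5:**
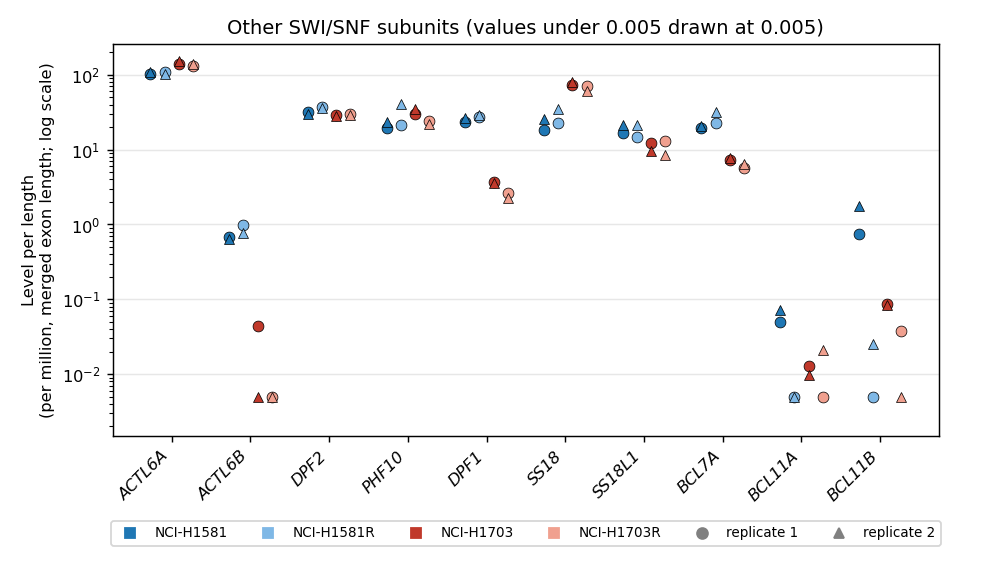
Level per length (log axis, with values under 0.005 drawn at 0.005) of 10 other SWI/SNF subunits, chosen after their values were seen, with 1 point per library. DPF1 is at 23.4 to 28.9 in the NCI-H1581 lines and at 2.24 to 3.72 in the NCI-H1703 lines, SS18 is at 18.4 to 35.4 and at 60.6 to 79.8, and BCL11B is at 0.752 and 1.75 in NCI-H1581 and at or below 0.0863 in the other 6 libraries.

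The scarcity of SMARCA4 and SMARCA2 was not shared by most ATPases of other remodellers. Of 13 such genes (the ISWI, CHD, SRCAP, EP400 and INO80 families), 12 had between 504 and 10118 counts in each library and a level per length between 2.74 and 252. The exception was INO80, with 47 and 23 counts in NCI-H1581, 0 and 160 in NCI-H1581R, 280 and 85 in NCI-H1703 and 125 and 38 in NCI-H1703R, named after its values were seen. Between the sensitive lines 5 of the 13 were higher and 5 lower in NCI-H1703, where 62.9% of all genes were called. The largest changes were those of INO80 (2.43 ± 0.65, edgeR adjusted p = 0.0154), SMARCA1 (-0.94 ± 0.12, 0.000379), CHD3 (0.85 ± 0.09, 0.00015) and CHD7 (-0.74 ± 0.13, 0.00219). The INO80 call was lost in the single fit of all 8 libraries (adjusted p = 0.111, with a range from 0.00215 to 0.111 over the alternatives) and without NCI-H1581 replicate 2 (0.122), and its value ran from 1.43 without NCI-H1703 replicate 1 to 3.15 without NCI-H1581 replicate 1. Between the resistant variants 2 of the 13 were higher and 4 lower, where 52.5% of all genes were called. With the replicate block 1 was higher and 4 lower, where 42.0% of all genes were called. In NCI-H1703R 1 of the 13 was called, where 14.7% of all genes were. CHD7 fell (-0.55 ± 0.13, edgeR adjusted p = 0.0543), a call lost whichever library was left out. The replicate block gave 5 calls of 13 there, 3 higher and 2 lower, where 34.9% of all genes were called. In NCI-H1581R 0 of the 13 were called, where 15.1% of all genes were (2 were higher with the replicate block, where 18.1% were).

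SMARCA4 and SMARCA2 were each matched with the genes of most similar pattern, by the smallest Euclidean distance between centred log2(CPM + 1) values over the 8 libraries, among 10796 annotated genes that averaged 5 CPM or more. For SMARCA4 these were ZNF320 (distance 0.603), ZNF445 (0.649) and PPL (0.660). ZNF320 was at 24.5 CPM in NCI-H1581R replicate 2 and at 9.95 CPM in NCI-H1703R replicate 2, the libraries in which SMARCA4 was highest and lowest. As ZNF320 was picked for its likeness over these same libraries, these shared extremes are no separate evidence. For SMARCA2 they were OGFOD3 (0.121), NCAPD3 (0.151) and POGK (0.164), distances that are small because SMARCA2 stayed under 1 CPM, where the pseudocount of 1 flattens the scale.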

How the data were processed

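RNA of the 8 libraries was sequenced as paired reads. Per the methods and the labels, the authors quantified the reads with Salmon against GRCh38 (hg38), with cutadapt also named, and collapsed transcript values by gene using tximport. Values were deposited by the authors as estimated counts in whole numbers, without normalisation. The Salmon version, annotation, strand setting and tximport scaling are not given in the sources used here, and an estimate can divide reads between identical copies.

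Symbols, positions and lengths came from GENCODE v44, which held 34495 of the 37441 identifiers. Genes with at least 10 counts over the 8 libraries were tested with edgeR 4.0.16 (R 4.3.3; TMM normalisation, quasi-likelihood test, 4 libraries per comparison and all 8 for the interaction) and Benjamini-Hochberg adjustment over 18203 genes, and called at an adjusted p under 0.1. CPM used TMM library sizes. Log2 fold changes are given with standard errors. DESeq2 1.42.0, other scalings and filters, an offset for GC content and length, a replicate block and leaving out each library were alternatives. Transcripts were aligned to alternate contigs with minimap2 2.31 (a copy was at least 99% of the transcript). Tables were handled with Python 3.11.15, pandas 2.3.3, numpy 2.4.6 and scipy 1.17.1. The test was tried on simulated data, in which replicates differed only by a fixed dispersion. That trial does not show how the test behaves on replicates that differ as these do. All per-sample columns were used.

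The growth protocol describes the second replicate as a repeat of the procedure. The differences between replicates correlated between NCI-H1581 and NCI-H1581R (r = 0.215) and between NCI-H1703 and NCI-H1703R (r = 0.458) over 11174 genes. The block is therefore given where it changed the number of called genes in a list. Totals of 33800389 to 40031710 counts limit precision for genes with few counts, and intervals cover counting error only. The members and gene lists were chosen with earlier results of these data known. All 10 members are named, as are, for each other list and comparison, up to 4 called genes with the largest changes and any gene said to be chosen later.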

Additional observations from a re-analysis of the deposited data

Results flagged for a closer look

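The change of SMARCC1 with resistance differed between the lines in the main fit, with an interaction of -0.74 on the log2 scale (edgeR adjusted p = 0.0262). The call was lost with the GC content and length offset (-0.453, edgeR adjusted p = 0.234) and with the block and offset (-0.455, 0.291). With 1 library left out the value ran from -0.819 to -0.627, and the call did not always hold, as given above. SMARCC1 was lower in both NCI-H1703R libraries than in both NCI-H1703 libraries, while the NCI-H1581R and NCI-H1581 libraries overlapped.

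BCL11A also differed between the lines in its change with resistance, by 7.22 on the log2 scale (edgeR adjusted p = 0.0724, with a range from 0.0617 to 0.123 over the alternatives). This fitted value rests on few counts, 13 and 20 in NCI-H1581, 0 and 0 in NCI-H1581R, 3 and 2 in NCI-H1703 and 1 and 5 in NCI-H1703R, and depends on the prior count. The call held in 2 of the 8 fits that left out 1 library.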

How the results depend on the processing

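Of 814 values recomputed with every library kept, 746 kept their direction and side of the threshold, 41 lost a call, 17 gained one and 10 reversed, and of 312 with 1 library left out these numbers were 233, 48, 13 and 18. In those fits a lone library is assumed to vary like the other groups. For NCI-H1703R against NCI-H1703 the replicate block gave 5 calls among the members, the block with the GC content and length offset 5, the single fit of all 8 libraries 1, and leaving out 1 library 0 to 2. For NCI-H1703R against NCI-H1581R the count was 2 at an adjusted p under 0.05, 2 with the block, 2 with the block and offset, 7 with the crossed block (chosen after seeing the data, since same-numbered libraries deviated oppositely, as were the legacy quasi-dispersions) and 2 to 4 with 1 library left out. For the interaction it was 0 with the offset and 0 with the block and offset, and 0 to 4 with 1 library left out, and for NCI-H1581R against NCI-H1581 it was 0 to 3. The block changed no other count of members called. Between the resistant variants the crossed block called 11063 of all 18203 tested genes, against 9565 without a block. The SMARCC1 change in NCI-H1581R, near 0, reversed with DESeq2 (-0.0219), RLE normalisation (-0.0219), at least 10 counts in every library (-0.00997), the offset (-0.162), the block and offset (-0.166) and the single fit (-0.00728). SMARCE1 in NCI-H1581R reversed with the offset (-0.142) and the block and offset (-0.141), and ARID1B in NCI-H1703R with the same settings (0.138 and 0.139). With 1 library left out, values in NCI-H1581R ran from -0.213 to 0.513 for SMARCA4, -1.57 to 1.30 for SMARCB1, -0.0389 to 0.0329 for SMARCC1, -0.78 to 0.213 for SMARCC2, -0.21 to 0.406 for SMARCD3, -0.328 to 0.364 for ARID1A and -0.318 to 0.70 for ARID1B. In NCI-H1703R they ran from -1.64 to 1.74 for SMARCB1, -0.0192 to 0.231 for SMARCC2 and -0.0572 to 0.0298 for ARID1B. SMARCA4 ran from -0.293 to 0.44 between the sensitive lines, and between the resistant variants SMARCB1 ran from -1.79 to 2.78, SMARCC1 from -0.173 to 0.00856 and ARID1B from -0.279 to 0.776. The cause was not tested.

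Over all genes, calls for NCI-H1703R rose from 2683 to 6356 with the block and 6807 with the block and offset (4019 higher and 2788 lower, against 1286 and 1397), and were 1640 at an adjusted p under 0.05, 1730 in the single fit and 274 to 1686 with 1 library left out. For NCI-H1581R they went from 2743 to 1793 at an adjusted p under 0.05, 4539 in the single fit and 1128 to 5185 with 1 library left out. Between the resistant variants 9565 became 6120 without NCI-H1703R replicate 1. For the interaction the split was 1262 higher and 1541 lower, and 1757 and 1280 with the offset, which moved the median of all genes from -0.09 to 0.07. Genes with few counts, SMARCA2 among them, cannot be read finely at this depth.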

Other observations

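The genes around SMARCC1 were examined after its values were seen. Within 1 Mb of SMARCC1, 26 genes had a mean of at least 5 CPM, and in NCI-H1703R their median log2 fold change was -0.50, with 24 below 0, 16 called lower and 0 called higher. Over all 11174 genes at that level the median was 0.03, 46.2% were below 0 and 9.68% were called lower. In NCI-H1581R the median of the same 26 genes was 0.00, with 13 below 0 and 1 called lower. Around ARID1A (31 genes, median -0.05, 3 lower and 2 higher) and SMARCD3 (17 genes, median -0.04, 2 lower and 3 higher) no such run of lower values was seen in NCI-H1703R.

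The lower values reached over part of chromosome 3. From 10 to 50 Mb, 170 genes had a median of -0.37 in NCI-H1703R, with 147 below 0, 70 called lower and 1 higher. The median of each of the 8 bins of 5 Mb there lay between -0.45 and -0.21. These limits fall where the bin medians changed sign, with 0.19 at 5 to 10 Mb and 0.12 at 50 to 55 Mb. The segment thus follows these same values, and its contrast with the rest of the chromosome is no separate evidence. From 0 to 10 Mb the median of 28 genes was 0.21, and from 50 to 200 Mb that of 409 genes was 0.17, with 25 called lower and 75 higher. In NCI-H1581R the median from 10 to 50 Mb was 0.09, with 9 called lower and 12 higher. The paper compared DNA copy number between sensitive and resistant variants with arrays. For NCI-H1703R it reports an increase in a portion of this same chromosome and a normalisation in a fragment of it. Its text does not give the positions, so they could not be matched to the lower RNA values. DNA copy number was not analysed here, and its part in the SMARCC1 value was not tested.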
